A study of Mus musculus with 18 samples.

Results

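Homozygous Insm1 knockout embryos were compared with wildtype embryos across all genes measured on whole-transcript arrays of the dorsal telencephalon, the region that forms the cerebral cortex. The comparison used 12 of the 18 arrays of the series, 4 labelled homozygous knockout and 8 labelled wildtype, chosen by their titles. The other 6 arrays came from heterozygous embryos and entered only the estimate of the spread between embryos. All embryos were at stage E13.5, 1 array was run per embryo from total RNA, and the study was set up to look for genes that depend on Insm1. The labels give no strain, litter or sex, and do not say which part of Insm1 was deleted or whether any embryo received another treatment. The p-values below therefore measure the spread between these embryos. In tissue RNA, fewer cells of a type and less RNA per cell cannot be told apart.

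Insm1 encodes a zinc-finger protein that can repress transcription by recruiting corepressors. It is made for a short time in cells that leave the stem-cell state, in the nervous system and in endocrine tissues. In the developing cortex, apical progenitors line the ventricle and divide there, basal progenitors leave that layer and usually divide into neurons, and the new neurons migrate outward. Insm1 is known for promoting the formation of basal progenitors.

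The targeted gene was measured first. Insm1 signal, on the log2 scale of the arrays where 1 unit is a 2-fold difference, had a lowest value of 4.84, a median of 5.35 and a highest value of 5.77 in the wildtype arrays. The 4 homozygous arrays read 3.61, 3.54, 3.23 and 2.87. All homozygous values lay below all wildtype values, and Insm1 fell by 2.03 (SE 0.20, limma adjusted p = 3.81e-05), to 24.5% of the wildtype level. Whether the remaining signal is transcript left by the allele or background of the probes cannot be told apart here.

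Among genes that mark dorsal telencephalon, Lhx2 averaged 9.37 in wildtype and 9.17 in homozygous arrays, Pax6 6.18 and 6.24, Emx2 6.47 and 6.34, Tbr1 7.48 and 7.28, and Eomes 6.93 and 6.585. Of the 14 measured markers of ventral telencephalon, none passed the test, but 12 had a lower mean and the median difference was -0.15. Their mean level ran from 1.39 to 1.90 in wildtype and from 1.38 to 1.55 in homozygous arrays, and their summed linear signal from 38.8 to 61.7 and from 38.1 to 43.5. No member was at 0, and with their mean as a covariate 45 probe sets passed as lower. Marker lists of meninges, endothelium, blood and microglia had no member that passed, with median differences from -0.02 to 0.00. None of 16 measured markers of cortical hem and choroid plexus passed either, with a median of -0.03. Their summed linear signal varied widely within both groups, from 175 to 994 in wildtype and from 272 to 851 in homozygous arrays. Homozygous replicate 2 stood apart in hypoxia-response genes, with a mean of 5.75 over the 5 measured, against 4.15 to 4.33 in the other homozygous arrays and 3.94 to 4.33 in wildtype. The Y-linked gene Eif2s3y was high in wildtype replicates 1, 2, 5, 6 and 7 and in homozygous replicate 4 only, so the presence of a Y chromosome was not balanced. The part of both differences in the results was examined only through the refits given in the closing section.

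More genes passed as lower than as higher, a split that depended on the scaling. Of the 16661 probe sets tested, 94 (0.564%) passed an adjusted p of 0.05, of which 84 (0.504%) were lower and 10 (0.06%) higher in homozygous arrays. A further quantile normalization gave 74 lower and 84 higher, and centring each array on its median gave 67 lower and 75 higher. These settings moved the median difference over all probe sets from -0.03 to 0.00 and 0.04. The mean was lower in homozygous arrays for 59.1% of all probe sets, and an unadjusted p under 0.05 was reached by 2009 lower (12.1%) and 537 higher (3.22%) probe sets. Single arrays also moved the counts: they were 31 lower and 5 higher without homozygous replicate 2, 32 and 5 without homozygous replicate 3, and 52 and 8 without wildtype replicate 3. Without wildtype replicate 1 the counts were 55 and 7, and without wildtype replicate 5 they were 61 and 6. They were 312 and 82 without homozygous replicate 1, 176 and 12 without wildtype replicate 7, and 335 and 34 without heterozygous replicate 6.

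The changes were small in size. The median difference of the 84 lower probe sets was -0.46, and 20 of them were beyond 1.5-fold. Over all tested probe sets, 84 differences were beyond 1.5-fold, of which 24 passed the test. Beyond 2-fold there were 9 differences, and 3 passed: Insm1, Neurod4 and Galnt14. Those that did not pass, named after their values were seen, included Eif2s3y and Kdm5d on the Y chromosome, Mt2 and Slc16a3. Slc16a3, a lactate exporter, read 6.33 in homozygous replicate 2, while the other homozygous arrays lay from 3.43 to 3.46. Mt2, a metallothionein, read 2.45, 5.67, 5.64 and 4.23 in the homozygous arrays against 2.86 to 3.66 in wildtype.

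The precision of the arrays bounded most differences within 1.5-fold. For 15603 probe sets (93.6%) the 95% interval of the difference lay within 1.5-fold in both directions, and for 16541 (99.3%) within 2-fold. Within 1.2-fold, a narrower bound, lay the intervals of 7179 (43.1%). The 5 most abundant genes in wildtype, among probe sets with 1 symbol, all had intervals within 1.5-fold. Actb, cytoplasmic actin, differed by -0.10 (95% interval -0.27 to 0.06) and Ccnd2, the cyclin D2 of dividing progenitors, by -0.13 (-0.25 to -0.01). Eef2, a translation elongation factor, differed by -0.03 (-0.14 to 0.08), Tubb5, a beta-tubulin, by -0.06 (-0.18 to 0.05), and Cdk4, the kinase partner of D cyclins, by 0.04 (-0.12 to 0.20). None of the 5 passed the test, and the sign of Eef2 and of Cdk4 changed under other settings.

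**Figure D1:**
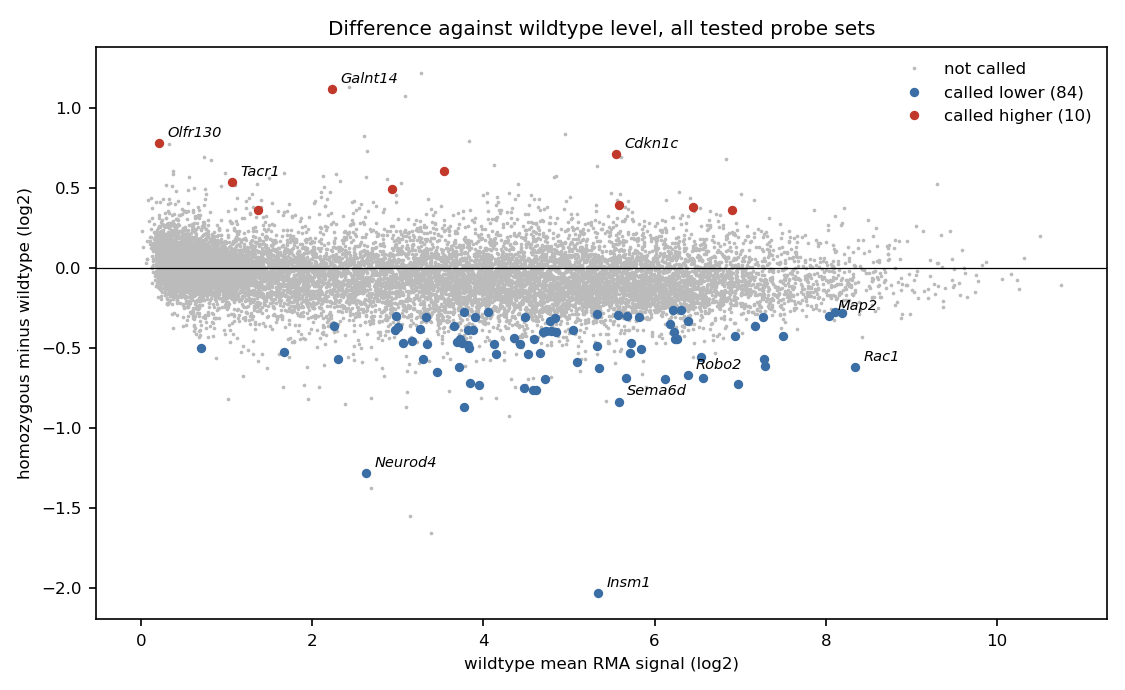
Difference in log2 signal between homozygous and wildtype means (vertical axis) against the wildtype mean log2 signal (horizontal axis) for each of the 16661 tested probe sets. Blue points are the 84 that passed lower, red points the 10 that passed higher, grey points the rest, and Insm1, Neurod4 and Galnt14 lie farthest from 0 among the coloured points.

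In 75 of the 84 lower probe sets and in 6 of the 10 higher ones, the homozygous and wildtype arrays did not overlap. The background for this was 2.48% of all tested probe sets, with 369 (2.21%) below and 45 (0.27%) above. The calls were made from the same values, so the lack of overlap describes them and is not separate support. The calls that passed fell into roles as follows. Of the 84 lower probe sets, 82 had 1 gene symbol, Insm1 among them. The other 81 genes were grouped by role after their values were seen: 16 act in transcription and chromatin, 16 are signalling enzymes and receptors, 13 act in adhesion, guidance and matrix, and 10 belong to the cytoskeleton, motors and centrosome. Smaller groups were 7 genes of vesicle traffic and synapse, 6 enzymes of sugar and lipid metabolism and protein folding, 5 channels, pumps and transporters, and 4 genes of RNA binding and modification. The remaining 4 were Sh3bgrl2, Bmf, Tcp11l1 and D430042O09Rik. How large each role is among all measured genes was not counted, so these numbers describe the calls only.

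Promoter sequence is shown for 4 of the genes that passed. Neurod4 and Nhlh1 are basic helix-loop-helix transcription factors that fell. Elavl4, which also fell, is an RNA-binding protein of new neurons, and Galnt14 is the gene that rose most. Each window is RefSeq sequence of mouse build GRCm38.p6, from 250 bases before to 50 after the gene's first listed start, on the strand of the gene. The windows are chr10:130280205-130280504 (minus strand) for Neurod4, chr1:172057547-172057846 (minus) for Nhlh1, chr4:110351862-110352161 (minus) for Elavl4 and chr17:73710402-73710701 (minus) for Galnt14. Capitals mark matches to 4 motifs on either strand: AGGGGGC, a core of the sequence that Insm1 binds, and 3 variants of the E-box that basic helix-loop-helix factors bind. The E-box variants searched were CAGCTG together with CAGATG, and also CAGGTG.
Neurod4: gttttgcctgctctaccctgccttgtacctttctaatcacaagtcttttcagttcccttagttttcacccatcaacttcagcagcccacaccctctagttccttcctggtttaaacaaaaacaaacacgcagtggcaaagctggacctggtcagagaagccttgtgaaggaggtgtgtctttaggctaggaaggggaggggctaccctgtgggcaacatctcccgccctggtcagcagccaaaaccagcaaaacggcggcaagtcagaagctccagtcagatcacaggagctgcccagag
Nhlh1: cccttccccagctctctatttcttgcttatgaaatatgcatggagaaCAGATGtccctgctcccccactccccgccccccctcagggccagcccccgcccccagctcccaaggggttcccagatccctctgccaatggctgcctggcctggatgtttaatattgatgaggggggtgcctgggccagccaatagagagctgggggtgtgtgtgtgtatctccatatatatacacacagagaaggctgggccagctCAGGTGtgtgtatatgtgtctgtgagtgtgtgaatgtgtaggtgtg
Elavl4: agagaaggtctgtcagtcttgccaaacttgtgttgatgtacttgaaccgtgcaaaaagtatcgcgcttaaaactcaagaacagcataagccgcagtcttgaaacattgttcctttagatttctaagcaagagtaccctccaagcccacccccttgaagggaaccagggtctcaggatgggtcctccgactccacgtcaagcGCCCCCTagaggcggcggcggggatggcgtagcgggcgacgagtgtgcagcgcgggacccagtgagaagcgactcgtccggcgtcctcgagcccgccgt
Galnt14: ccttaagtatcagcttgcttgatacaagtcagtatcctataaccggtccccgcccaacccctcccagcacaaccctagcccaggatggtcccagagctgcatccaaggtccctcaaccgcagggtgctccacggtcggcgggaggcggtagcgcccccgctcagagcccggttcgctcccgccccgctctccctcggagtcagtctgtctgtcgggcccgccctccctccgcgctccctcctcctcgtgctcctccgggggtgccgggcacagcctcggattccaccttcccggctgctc
The Nhlh1 window held CAGATG and CAGGTG, and the Elavl4 window held AGGGGGC on the opposite strand, printed as GCCCCCT. No match was present in the Neurod4 and Galnt14 windows. Further windows were looked at but are not shown. Those of Plcb1, Robo2, Sema6d and Ebf3 held no match, that of Sh3bgrl2 held CAGGTG on the opposite strand, and that of Akna held CAGCTG.

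Transcription factors of new neurons leaned lower. Of 28 measured members of that list, 26 had a lower mean in homozygous arrays, 5 passed the test as lower and none as higher, and the median difference was -0.28. Over all 14807 genes, counted with 1 probe set each, 59.9% had a lower mean and the median was -0.03. Of these genes, 82 passed as lower and 9 as higher. In the brightest of 3 equal groups of probe sets by mean level, 71.1% had a lower mean and the median was -0.09. These values are the background for every list below. The mean level of the list of transcription factors read 4.70, 4.69, 4.72 and 4.75 in the homozygous arrays, below its wildtype range of 4.93 to 5.16.

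Neurod4, a basic helix-loop-helix factor that drives neuronal differentiation, ran in wildtype from 2.26 to 3.11 with a median of 2.64. Homozygous arrays read 1.02, 1.24, 1.76 and 1.40. Every homozygous value lay below the lowest wildtype value, and Neurod4 fell by 1.28 (SE 0.21, adjusted p = 0.00573), to 41.2% of wildtype. The homozygous values lay near the low end of the scale, which limits that percentage. Nhlh1, another factor of that class in newly formed neurons, ran from 5.76 through 6.15 to 6.29 in wildtype and read 5.31, 5.35, 5.46 and 5.57 in homozygous arrays. It fell by 0.69 (SE 0.11, adjusted p = 0.00545), with no overlap. Neurod1, which acts in new glutamatergic neurons, ran from 6.26 through 6.56 to 6.83 against 6.02, 5.70, 5.81 and 5.97. It fell by 0.69 (SE 0.15, adjusted p = 0.0430), again with no overlap. The Neurod1 call was lost in 4 of 15 processing settings and in 11 of the fits with 1 array left out.

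St18, a zinc-finger factor of the Myt family, ran from 3.68 through 3.91 to 4.20 in wildtype and read 3.28, 3.12, 3.21 and 3.30 in homozygous arrays. It fell by 0.73 (SE 0.088, adjusted p = 0.000409). Ebf3, a helix-loop-helix factor of early-born neurons including Cajal-Retzius cells, was nearly level among homozygous arrays at 3.28, 3.26, 3.28 and 3.31, below a wildtype range of 3.60 to 4.04 with a median of 3.71. It fell by 0.46 (SE 0.077, adjusted p = 0.00573). Cux2, a homeobox gene of the subventricular zone and upper-layer neurons, ran from 3.55 through 3.71 to 3.87 and read 3.33, 3.40, 3.07 and 3.32. It fell by 0.44 (SE 0.072, adjusted p = 0.00526), and neither Ebf3 nor Cux2 overlapped. Ebf3 was the only one of 11 measured Cajal-Retzius markers to pass, and 9 of them were lower in mean.

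Tshz1, a teashirt-class zinc-finger gene, and Aff3, of the AF4 family of elongation factors, differed by -0.44 and -0.48 and passed at adjusted p of 0.0350 and 0.00709. The deep-layer factors Bcl11a and Bcl11b, named after their values were seen, did not overlap between groups but missed the threshold, with differences of -0.25 and -0.38 and an adjusted p of 0.0575 for each. Stat3, a signal-dependent transcription factor, ran from 4.44 through 4.67 to 4.91 in wildtype and read 4.24, 4.17, 4.01 and 4.10 in homozygous arrays, a difference of -0.53 (SE 0.079, adjusted p = 0.00279). Mrtfb, a coactivator of serum response factor, differed by -0.40 (adjusted p = 0.0323).

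Chromatin proteins were among the smaller changes. Smarca4, the ATPase of BAF chromatin-remodelling complexes, was one of the most abundant genes that passed. It ran only from 8.05 through 8.11 to 8.18 in wildtype and read 7.95, 7.78, 7.73 and 7.89 in homozygous arrays. The groups did not overlap, and the difference of -0.27 (SE 0.051, adjusted p = 0.0136) corresponds to 82.6% of wildtype. Gse1, a protein found with corepressor complexes, Mllt6, a zinc-finger partner in leukaemia fusions, and Tasor2 differed by -0.39, -0.39 and -0.36, with adjusted p of 0.0323, 0.0487 and 0.0430. Of 12 measured members of the corepressor list, 8 (66.7%) had a lower mean, beside 71.1% of the brightest group of probe sets, and none passed. Rcor2, a CoREST corepressor, and Insm2, the paralogue of Insm1, differed by -0.23 and -0.27 (adjusted p of 0.125 and 0.140). Kdm1a, a histone demethylase, and Hdac2, a histone deacetylase, differed by -0.12 and -0.15 (adjusted p of 0.277 and 0.300).

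RNA-binding proteins of neurons showed 3 members that passed among 18 measured, with 15 lower in mean and a median difference of -0.23. All 3 belong to the Elavl family, which binds AU-rich RNA and marks new neurons. Elavl4 ran from 6.08 through 6.27 to 6.51 in wildtype and read 5.76, 5.82, 5.85 and 5.87 in homozygous arrays, without overlap, a difference of -0.44 (SE 0.067, adjusted p = 0.00325). Elavl3 ran from 7.38 through 7.48 to 7.62 and read 7.39, 6.90, 6.99 and 6.998, so that homozygous replicate 1 reached the wildtype range. Its difference was -0.43 (SE 0.085, adjusted p = 0.0249). Elavl2 differed by -0.33 (SE 0.065, adjusted p = 0.0220), with homozygous values of 6.01, 6.003, 6.04 and 6.17 below a wildtype minimum of 6.23. The fourth family member, Elavl1, which is expressed in most cells, differed by -0.25 and did not pass (adjusted p = 0.086). Celf4 and Rbfox3, neuronal splicing regulators named after their values were seen, differed by -0.39 and -0.36 (adjusted p of 0.0575 and 0.067). Trmt6, a subunit of a transfer RNA methyltransferase, differed by -0.45 (adjusted p = 0.0181).

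**Figure D2:**
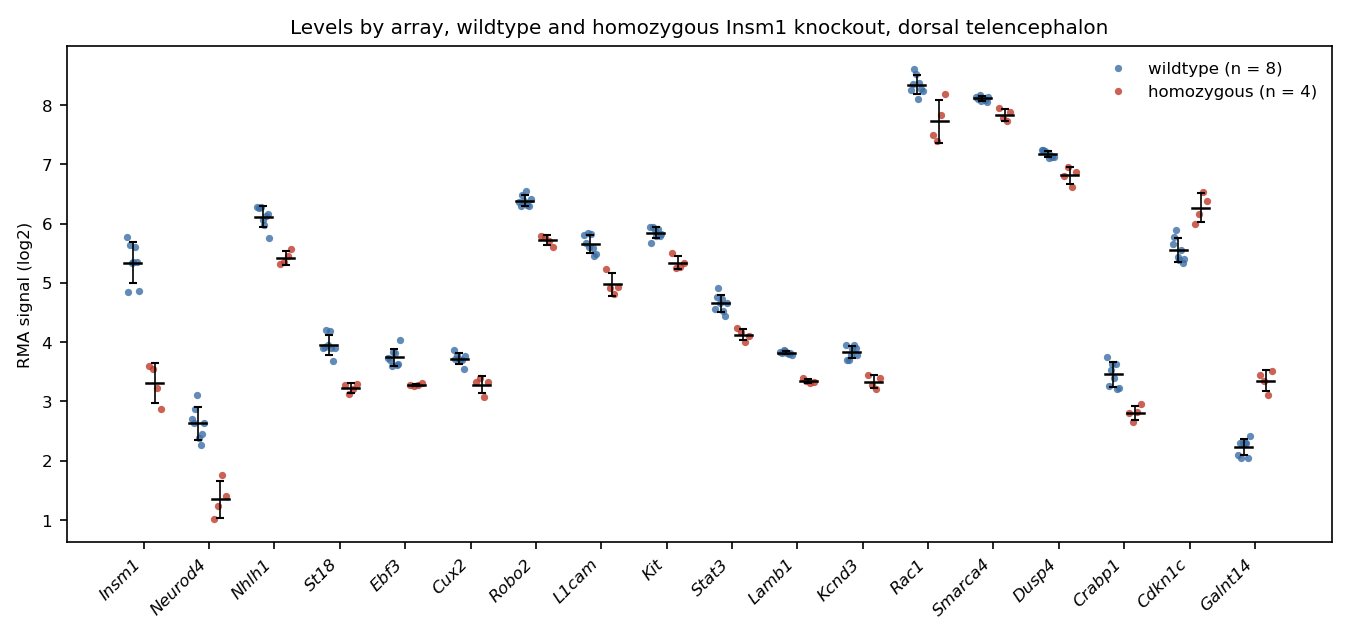
Log2 signal by array for 18 genes, with 8 wildtype arrays in blue and 4 homozygous arrays in red; the horizontal bar is the mean and the error bar the SD. Homozygous points lie below wildtype points for every gene drawn except Rac1, where the groups overlap, and Cdkn1c and Galnt14, which are higher.

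Some axon guidance and adhesion genes were among the lower calls. Of 37 measured guidance receptors and ligands, 28 (75.7%) had a lower mean, beside 71.1% of the brightest group of probe sets. In that list 2 passed as lower and 1 as higher, and the median was -0.175, beside -0.09 in the brightest group. Robo2, a receptor for Slit repellents, had the smallest adjusted p of the group. It ran from 6.29 through 6.37 to 6.55 in wildtype and read 5.80, 5.77, 5.71 and 5.61 in homozygous arrays, without overlap (difference -0.67, SE 0.074, adjusted p = 0.000196). Sema6d, a transmembrane semaphorin, ran from 5.32 through 5.57 to 5.84 and read 4.81, 4.49, 4.65 and 5.04, without overlap. It fell by 0.83 (SE 0.11, adjusted p = 0.00162). The receptors Nrp1 and Epha3 did not overlap either, but at -0.45 and -0.33 they did not pass (adjusted p of 0.077 and 0.102). The member that rose was Efna1, described with the other higher genes.

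Of 32 measured neural adhesion molecules, 28 had a lower mean and 6 passed as lower, with a median of -0.13. L1cam, an immunoglobulin-class molecule of axon growth, ran from 5.46 through 5.64 to 5.84 in wildtype and read 5.24, 4.92, 4.81 and 4.93 in homozygous arrays. It fell by 0.69 (SE 0.098, adjusted p = 0.00177). Cntn2, a contactin on early axons, ran from 6.66 through 6.97 to 7.21 and read 6.27, 6.06, 6.36 and 6.33, a difference of -0.72 (SE 0.15, adjusted p = 0.0364). Dscam and Celsr3, a self-avoidance molecule and an atypical cadherin needed for axon tracts, differed by -0.57 and -0.62 (adjusted p of 0.00814 and 0.0171). In L1cam, Cntn2, Dscam and Celsr3 no homozygous value reached the wildtype range. Ctnna2, neuronal alpha-catenin, and Negr1, an immunoglobulin-class molecule, differed by -0.35 and -0.30 (adjusted p of 0.0345 and 0.0392). Nrcam, a relative of L1cam, went the other way: its difference was 0.31 and did not pass (adjusted p = 0.052). Of 17 measured genes of adherens junctions and delamination, 12 (70.6%) had a lower mean, beside 71.1% of the brightest group of probe sets. In that list Ctnna2 alone passed, and Pard3 and Ctnna1 differed by -0.23 and -0.16 (adjusted p of 0.144 and 0.195). The median of that list, -0.08, became 0.00 with a further quantile normalization.

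Some matrix genes, grouped after their values were seen, also passed. Lamb1, a laminin beta chain of basement membranes, ran from 3.78 through 3.82 to 3.88 in wildtype and read 3.39, 3.35, 3.32 and 3.33 in homozygous arrays. Both groups were narrow and far apart, and Lamb1 fell by 0.48 (SE 0.066, adjusted p = 0.00162). Nid1, nidogen of the same membranes, and Edil3, a secreted integrin ligand, differed by -0.36 and -0.38 (adjusted p of 0.0328 and 0.0337). Adamts7, a secreted metalloprotease, was among the smallest changes that passed, at -0.27 (adjusted p = 0.0364), with homozygous replicate 4 inside the wildtype range. Of 15 measured markers of meninges and mesenchyme, tissues rich in matrix, none passed, and their median difference was 0.00. None of 16 measured markers of endothelium and pericytes passed either, and 10 (62.5%) had a lower mean, beside 59.9% of all genes. An unadjusted limma p under 0.05 was reached by 4 of the 16, all lower, beside 12.1% of all probe sets. Which cells the matrix differences came from was not tested.

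Cytoskeletal genes of neurons leaned the same way. Of 30 measured members of the neuronal cytoskeleton and growth cone list, 27 had a lower mean, 3 passed as lower and none as higher, with a median of -0.24. Ina, the intermediate filament alpha-internexin of young neurons, ran from 7.06 through 7.30 to 7.53 in wildtype and read 6.82, 6.61, 6.60 and 6.82 in homozygous arrays. It fell by 0.57 (SE 0.089, adjusted p = 0.00430), without overlap. Map2, a microtubule protein of dendrites, differed by -0.30 (SE 0.064, adjusted p = 0.0364), and Kif5a, a neuronal kinesin heavy chain, by -0.47 (SE 0.081, adjusted p = 0.00774). Nefm, Dcx, Dpysl3 and Map6, which build or bind neuronal filaments and microtubules, differed by -0.67, -0.29, -0.28 and -0.37 with adjusted p between 0.052 and 0.074, and did not pass.

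Actin-linked genes outside that list also passed. Afap1, which cross-links actin filaments, fell by 0.58 (SE 0.079, adjusted p = 0.00162), and Sorbs2, an adaptor at actin structures, fell by 0.42 (SE 0.060, adjusted p = 0.00166). Myh9, a non-muscle myosin heavy chain, differed by -0.27 (adjusted p = 0.0283). Rac1, a small GTPase that remodels actin, was the most abundant gene that passed. It ran from 8.10 through 8.32 to 8.61 in wildtype and read 7.49, 7.39, 7.83 and 8.18 in homozygous arrays, a wide spread in which homozygous replicate 4 overlapped the wildtype arrays (difference -0.62, SE 0.13, adjusted p = 0.0286). Akna, a centrosomal organizer of microtubules in cortical progenitors, ran from 4.43 through 4.59 to 4.78 in wildtype and read 4.10, 3.55, 3.67 and 3.97, without overlap (difference -0.76, SE 0.11, adjusted p = 0.00296). Cep128, a centriole protein, and Sgo2a, a protector of centromere cohesion, differed by -0.31 and -0.30 (adjusted p of 0.0181 and 0.0439).

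Among 31 measured voltage-gated and acid-sensing channels, 27 had a lower mean and 3 passed as lower, with a median of -0.17. Kcnd3, a potassium channel subunit of the A-type current, ran from 3.70 through 3.84 to 3.96 in wildtype and read 3.44, 3.29, 3.21 and 3.40 in homozygous arrays. It fell by 0.50 (SE 0.080, adjusted p = 0.00526). Kcnc1, a fast potassium channel subunit, lay near the low end of the scale, from 1.36 through 1.69 to 1.81 against 0.93, 1.37, 1.05 and 1.22 (difference -0.52, SE 0.087, adjusted p = 0.00573). The groups did not overlap for Kcnd3, and for Kcnc1 homozygous replicate 2 just reached the lowest wildtype array. Asic1, an acid-sensing channel, differed by -0.72 (SE 0.14, adjusted p = 0.0195), and Atp2b2, a calcium pump of the plasma membrane, by -0.53 (SE 0.096, adjusted p = 0.0110). Slc38a1, a glutamine transporter, fell at a high level: wildtype ran from 8.12 through 8.18 to 8.26 and homozygous arrays read 8.02, 7.93, 7.77 and 7.92 (difference -0.28, SE 0.054, adjusted p = 0.0212).

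Synaptic genes leaned lower with little that passed. Of 34 measured genes of the synaptic vesicle and active zone, 33 had a lower mean and the median was -0.18, but only Syn2, a synapsin that tethers vesicles, passed within that list. It ran from 3.98 through 4.13 to 4.28 in wildtype and read 3.58, 3.61, 3.54 and 3.87 in homozygous arrays, without overlap (difference -0.47, SE 0.085, adjusted p = 0.0110). Outside the list, Erc1, a scaffold of the active zone, differed by -0.29 (SE 0.055, adjusted p = 0.0192). Cask, a membrane scaffold kinase, differed by -0.26, the smallest change that passed (SE 0.050, adjusted p = 0.0192). Slc17a7, a vesicular glutamate transporter, and Snap91 of vesicle recycling differed by -0.57 and -0.28 and did not pass (adjusted p of 0.101 and 0.072). Of 32 measured neurotransmitter receptors, 21 (65.6%) had a lower mean, beside 59.9% of all genes, and none passed as lower. Of 18 measured genes of neurosecretion and dense-core vesicles, 14 had a lower mean and none passed, with Scg3, a granule protein, at -0.52 (adjusted p = 0.0501). Chrna3, a nicotinic receptor subunit, differed by -0.81 and Cnr1, a cannabinoid receptor, by -0.24 (adjusted p of 0.097 and 0.178). Endosomal and trafficking genes that passed were Hgs (-0.31, adjusted p = 0.0454), Rab3gap2 (-0.31, 0.0217), Gapvd1 (-0.26, 0.0381) and Clvs1 (-0.47, 0.0350).

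Genes of intracellular signalling were also among the lower calls. Plcb1, the phospholipase C coupled to Gq proteins, had the smallest adjusted p of these, from 4.28 through 4.64 to 4.79 in wildtype against 3.94, 3.86, 3.86 and 3.77 (difference -0.76, SE 0.088, adjusted p = 0.000256). Plch2, a phospholipase of the eta class, differed by -0.30 (SE 0.058, adjusted p = 0.0220). Pde1c, a calmodulin-dependent phosphodiesterase, ran from 2.12 through 2.31 to 2.47 and read 1.70, 1.83, 1.56 and 1.83, without overlap (difference -0.57, SE 0.079, adjusted p = 0.00162). Of 39 measured genes of phospholipase C, cyclic nucleotide and G protein signalling, 33 had a lower mean and 2 passed, with a median of -0.10.

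Kinases and their regulators followed. Kit, the receptor for stem cell factor, ran from 5.67 through 5.86 to 5.94 in wildtype and read 5.50, 5.25, 5.27 and 5.34 in homozygous arrays, without overlap (difference -0.51, SE 0.083, adjusted p = 0.00573). Dusp4, a phosphatase of MAP kinases, ran from 7.11 through 7.17 to 7.24 and read 6.81, 6.96, 6.62 and 6.87, without overlap (difference -0.36, SE 0.060, adjusted p = 0.00573). The kinases Nuak1, Prkx, Csnk1g1, Pak7, Snrk, Mast1 and Map3k9 differed by -0.55, -0.53, -0.44, -0.39, -0.39, -0.39 and -0.37, with adjusted p between 0.0158 and 0.0436. Rassf2, a Ras-association protein, and Ccdc88c, a Dishevelled-binding protein, differed by -0.54 and -0.33 (adjusted p of 0.0487 and 0.00880). Crabp1, which binds retinoic acid in the cytoplasm, ran from 3.21 through 3.46 to 3.76 and read 2.81, 2.65, 2.82 and 2.95, without overlap (difference -0.65, SE 0.10, adjusted p = 0.00526). It was the only member that passed among 40 measured genes of the Fgf, Bmp, Shh and retinoid pathways. None of 28 measured Wnt and none of 20 measured Notch pathway genes passed, and the median of both lists, -0.05 and -0.03, turned positive with the other scalings. The smallest p in these lists belonged to Lef1, a nuclear effector of Wnt (-0.25, adjusted p = 0.072), to Maml1, a Notch coactivator (-0.35, adjusted p = 0.110), and to Dll3, a Notch ligand (0.29, adjusted p = 0.122).

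Enzymes that modify sugars and lipids changed in both directions. Chst15, which sulfates chondroitin chains, ran from 4.50 through 4.71 to 5.03 in wildtype and read 4.06, 3.82, 4.02 and 4.18 in homozygous arrays, without overlap (difference -0.69, SE 0.12, adjusted p = 0.00774). Pxylp1, a phosphatase acting on the linker of such chains, differed by -0.47 (adjusted p = 0.0166). Gne, which starts sialic acid synthesis, and Gfpt1, which starts the hexosamine pathway, differed by -0.40 and -0.29 (adjusted p of 0.0487 and 0.0181). Lpin1, a phosphatidic acid phosphatase, and Hyou1, a chaperone of the endoplasmic reticulum, differed by -0.38 and -0.40 (adjusted p of 0.0126 and 0.0445). Of 34 measured enzymes of O-glycosylation and chondroitin sulfate, Chst15 passed as lower and Galnt14 as higher. Bmf, a pro-apoptotic BH3 protein, was the only one of 21 measured p53 and apoptosis genes to pass (-0.47, adjusted p = 0.0487), and its groups overlapped.

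The genes that rose shared no list. Galnt14, a transferase that attaches the first sugar of mucin-type O-glycans, ran from 2.05 through 2.30 to 2.42 in wildtype and read 3.44, 3.34, 3.10 and 3.52 in homozygous arrays. The groups were far apart, and Galnt14 was higher by 1.12 (SE 0.085, adjusted p = 1.15e-06), at 218% of wildtype. Cdkn1c, the cell-cycle inhibitor p57, ran from 5.33 through 5.50 to 5.89 and read 5.99, 6.16, 6.54 and 6.38, without overlap (difference 0.71, SE 0.14, adjusted p = 0.0184). It was the only one of 19 measured cyclins and cyclin-dependent kinase inhibitors to pass.

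Tacr1, the receptor for substance P, lay low on the scale, from 0.95 through 1.05 to 1.204 against 1.55, 1.34, 1.80 and 1.73 (difference 0.54, SE 0.076, adjusted p = 0.00166). Efna1, an ephrin ligand, ran from 1.203 through 1.41 to 1.52 and read 1.78, 1.86, 1.67 and 1.60 (difference 0.37, SE 0.066, adjusted p = 0.0121). Neither overlapped. The metal-binding Mt3, the peroxidase Gpx8, the mitochondrial ribosomal protein Mrpl54 and the propionate-pathway enzyme Mcee were higher by 0.38, 0.39, 0.50 and 0.61 (adjusted p of 0.0260, 0.0487, 0.0365 and 0.0423), and all 4 overlapped between groups. Olfr130, an olfactory receptor of a large family whose probes can share sequence, read 0.78, 0.83, 1.56 and 0.81 against -0.13 to 0.45 in wildtype, near the bottom of the scale (difference 0.78, SE 0.13, adjusted p = 0.00747).

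No gene of the radial glia and apical progenitor list passed. Of its 14 measured members, 4 had a lower mean, and the median difference was 0.09. Veph1, expressed in progenitors of the ventricular zone, differed by 0.32 (adjusted p = 0.0501). Fabp7, a fatty acid binding protein of radial glia, differed by 0.44 (adjusted p = 0.185). Of 14 measured genes of the basal progenitor list, 9 had a lower mean and 3 passed, namely Nhlh1, Neurod4 and Elavl4, with a median of -0.26. All 3 were also described above among transcription factors and RNA-binding proteins of neurons. The list median was -0.05 with the 75th percentile or with hypoxia genes as covariate, where 7 members had a lower mean. With the covariate for gene length it was -0.47. Eomes, the defining factor of basal progenitors, did not overlap between groups but was at -0.34 and did not pass (adjusted p = 0.061). Lhx2, a selector of cortical identity, likewise lay lower in all homozygous arrays, by -0.21, without passing (adjusted p = 0.061). Tbr1, a factor of early neurons, and Pax6, a factor of apical progenitors, differed by -0.20 and 0.06 and overlapped (adjusted p of 0.147 and 0.740).

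Cell-cycle lists gave no call besides Cdkn1c. Of 28 measured mitosis genes, 25 (89.3%) had a lower mean and none passed. Their median was -0.10, beside -0.09 in the brightest group of probe sets, where 71.1% had a lower mean. Bub1b, a spindle checkpoint kinase, and Cenpe, a kinetochore motor, differed by -0.24 and -0.33, without overlap and with adjusted p of 0.086 and 0.105. Of 26 measured DNA replication genes, 18 (69.2%) had a lower mean, a share near that of the brightest group, and none passed. Tyms, thymidylate synthase, differed by -0.31 (adjusted p = 0.190).

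**Figure D3:**
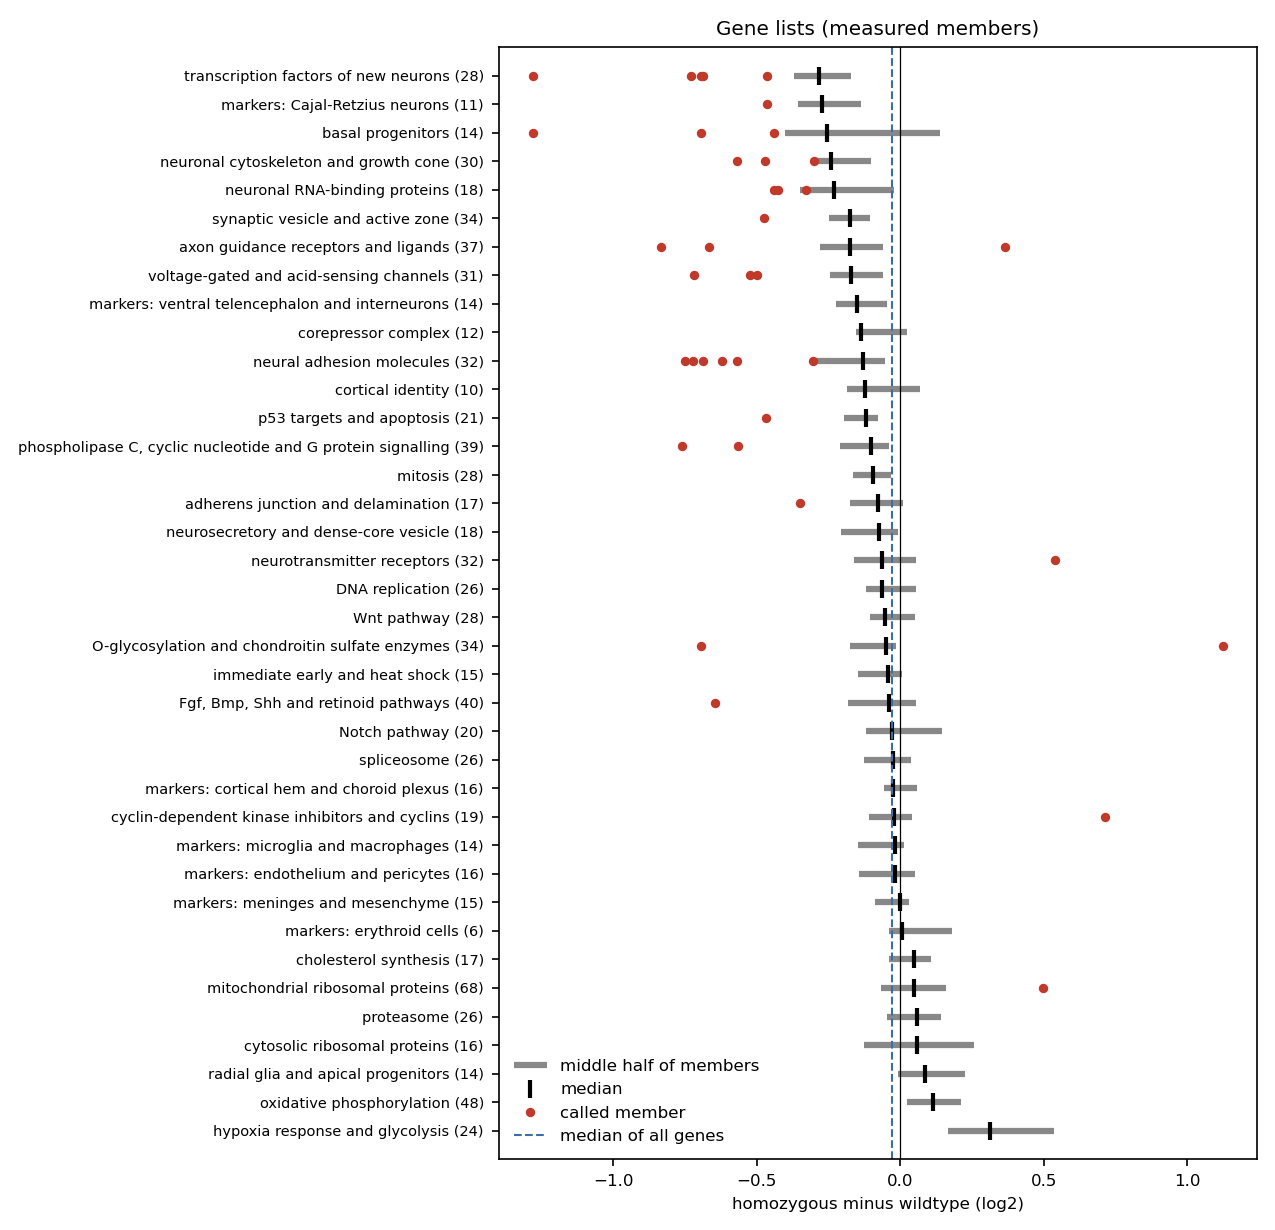
Differences in log2 signal between homozygous and wildtype means (horizontal axis) for each gene list (rows, with the number of measured members); black ticks are list medians, grey bars the range between quartiles, red points members that passed and the dashed line the median of all genes. The list of transcription factors of new neurons has its median at -0.28 and the oxidative phosphorylation list at 0.11, beside -0.03 over all genes.

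Genes of energy metabolism and protein turnover lay on the other side of the background. Of 48 measured genes of oxidative phosphorylation, 40 had a higher mean and none passed, with a median of 0.11. Ndufb5 and Ndufv2, subunits of complex I, differed by 0.28 and 0.36 (adjusted p of 0.061 and 0.077). The mean level of the list read 5.14, 5.22, 5.47 and 5.31 in the homozygous arrays against 4.996 to 5.31 in wildtype, so that homozygous replicate 3 was the highest. Medians were 0.06 for the 26 measured proteasome genes, 0.06 for the 16 cytosolic ribosomal proteins, 0.05 for the 68 mitochondrial ribosomal proteins and 0.05 for the 17 genes of cholesterol synthesis. Mrpl54 alone passed in these lists. Except for the cytosolic ribosomal proteins, the signs of these 5 medians, oxidative phosphorylation included, depended on a covariate for gene length, given with the length gradient. Of 26 measured spliceosome genes, 15 were lower in mean and none passed. The hypoxia and glycolysis list had a median of 0.31 over 24 measured genes, with none passing, and 0.03 when homozygous replicate 2 and heterozygous replicate 6 were left out.

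Brighter genes fell more often. When probe sets were divided into 3 equal groups by mean level, the median difference was 0.01 in the dimmest, -0.04 in the middle and -0.09 in the brightest, and the lower calls numbered 1, 31 and 52. The higher calls numbered 1, 5 and 4. Among the brightest, 71.1% of probe sets had a lower mean in homozygous arrays. These groups were counted in the deposited scaling only. Whether the trend with level holds under the other scalings, which moved the counts of calls, was not tested.

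Longer genes also fell more often. The 82 lower genes had a median genomic length of 73.3 kb, against 19.8 kb for all 14752 genes with a length and 27.0 kb for the brightest group. The 9 higher genes had a median of 3.67 kb. Divided into 5 equal groups by length, the lower calls numbered 3, 7, 7, 18 and 47 from the shortest to the longest, and the median difference went from 0.01 in the shortest to -0.07 in the longest. Within the brightest group the medians were 0.03, -0.04, -0.08, -0.11 and -0.14, so the gradient was also present among bright genes.

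The length gradient was not equal in the 4 homozygous arrays. The gap between the shortest and the longest group, in median deviation from the wildtype mean among bright genes, was 0.04, 0.11, 0.25 and 0.25 in homozygous replicates 1 to 4. The wildtype arrays ranged from -0.08 to 0.11, so that homozygous replicates 2, 3 and 4 lay above them all, replicate 2 by little (0.109 against 0.106). A refit with this gap as a covariate, chosen after seeing the data, called 1714 probe sets lower and 92 higher and shared 86 of the 94 calls. In that refit the medians of oxidative phosphorylation, mitochondrial ribosomal, proteasome and cholesterol lists were -0.04, -0.15, -0.15 and -0.03, reversed in sign, while that of the cytosolic ribosomal proteins stayed at 0.06.

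**Figure D4:**
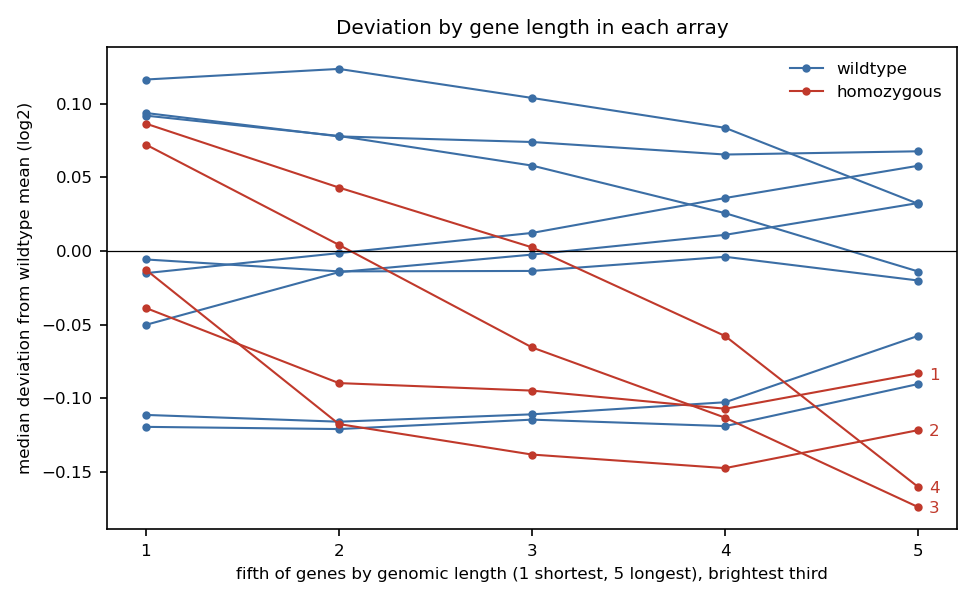
Median deviation from the wildtype mean (vertical axis, log2) in 5 groups of bright genes ordered from the shortest to the longest (horizontal axis), 1 line per array, wildtype blue and homozygous red with replicate numbers. Homozygous replicates 3 and 4 fall most steeply from short to long genes.

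The lower genes were spread over the genome. Lower calls were made on all autosomes except chromosomes 14 and 17, and chromosome 17 held 2 higher calls. The median difference per chromosome ran from -0.04 to -0.02 on the autosomes and the X. Chromosome 9 held 11 lower genes of 905 measured, chromosome 2, where Insm1 lies, 10 of 1276 and chromosome 1 8 of 844. Over all genes, 0.615% passed.

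The nearest neighbours of Insm1 did not pass. Of the 10 nearest measured genes on each side, none passed, 14 of the 20 had a lower mean and the median was -0.09. Dtd1, a tRNA-editing enzyme, and Xrn2, a nuclear exonuclease, differed by -0.31 and -0.20 (adjusted p of 0.195 and 0.137). Among the 50 nearest genes before Insm1, a width chosen after the values were seen, 4 passed as lower (8.0%): Pak7, Plcb1, Trmt6 and Rassf2, at places 32, 35, 42 and 49 counted from Insm1. The 50 genes after Insm1 held none. Over 100 genes on each side, the share that passed was 2.0%, with those same 4 genes, against 0.615% over all genes. A knockout allele can carry flanking sequence of the strain of its embryonic stem cells. Whether such linked sequence has a part in these 4 differences was not tested.

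**Figure D5:**
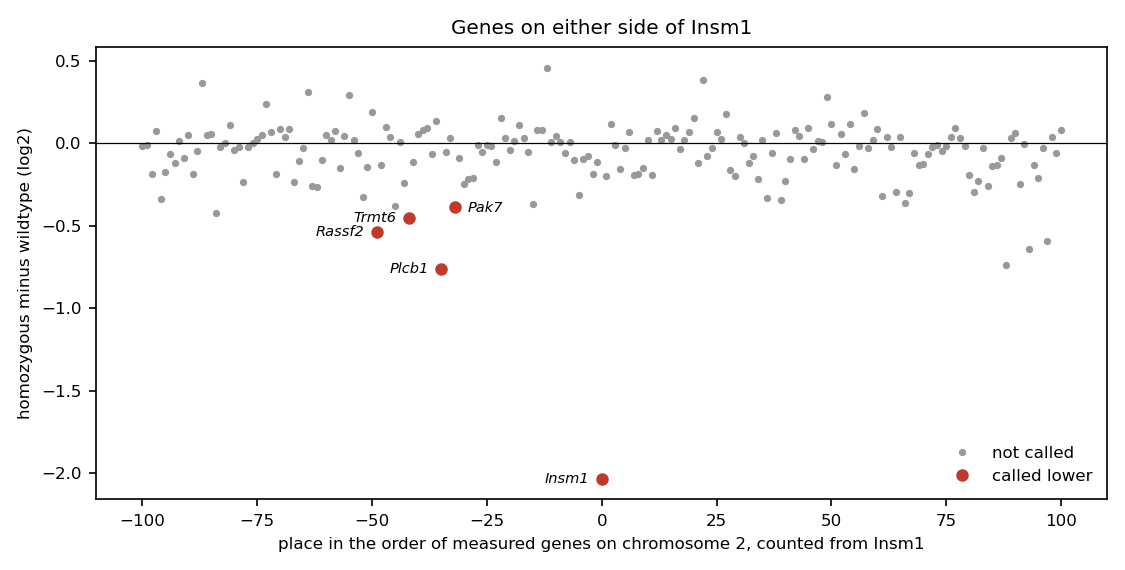
Difference in log2 signal between homozygous and wildtype means (vertical axis) for measured genes of chromosome 2 in gene order around Insm1 (horizontal axis, places from Insm1); red points passed and grey points did not. Insm1 is at -2.03, none of the 10 nearest genes on each side is red, and Pak7, Plcb1, Trmt6 and Rassf2 are the other red points, all to its left.

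The motifs shown in the promoter windows were counted over all genes with an entry, 64 of 82 lower, 7 of 9 higher and 11830 of all 14807. AGGGGGC was present in 12 of the 64 lower windows (18.8%) and in 14.3% of all. CAGGTG was present in 26.6% of the lower windows and 18.6% of all, CAGCTG in 17.2% and 15.6%, and CAGATG in 7.81% and 13.6%. Each motif was present in 1 of the 7 higher windows. The lower windows had a median GC content of 64.7% against 58.3% for all, and a match by letters alone is a description, not a binding site.

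Calls differed in how firmly they were held. Of the 90 genes that passed beside Insm1, 33 passed under every one of the processing settings in which they were tested, 27 passed whichever array was left out, and 26 did both. None changed direction under any of them. Among less firm calls, Cntn2 and Rac1 each lost theirs in 5 of 15 settings, and Bmf in 11. With 1 array left out, these 3 calls were lost in 9, 5 and 13 fits. The 26 were Neurod4, Nhlh1, St18, Ebf3, Cux2, Stat3, Elavl4, Robo2, Sema6d, L1cam, Lamb1, Ina, Afap1, Sorbs2, Akna, Kcnc1, Kcnd3, Plcb1, Pde1c, Kit, Dusp4, Crabp1, Sh3bgrl2, Galnt14, Tacr1 and Olfr130, the last of which was too dim to enter the setting that left out the dimmest probe sets. Sh3bgrl2, a small protein of the SH3-binding glutamic acid-rich family, ran from 3.61 through 3.78 to 4.01 in wildtype and read 3.05, 2.61, 3.08 and 2.90 in homozygous arrays, without overlap (difference -0.87, SE 0.13, adjusted p = 0.00357).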

How the data were processed

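Total RNA was measured on 1 array per embryo. The authors deposited a log2 value for each probe set of a transcript, which they made with RMA in Affymetrix Expression Console 1.1, per the submitters' processing notes. RMA corrects background, quantile-normalizes the arrays and summarizes probes. No version of RMA is stated there.

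The table held 23238 probe sets. The 16661 with identifiers of 6700000 or above were tested, and the other 6577 could not be assigned to a gene. Of those tested, 14939 had 1 gene symbol, 989 several and 733 none in the platform annotation, and 14884 matched a GRCm38.p6 gene table. Lists and lengths used 1 probe set per gene, the one with the highest mean, giving 14807 genes, 131 of which had several. Differences between homozygous and wildtype means were tested two-sided with limma 3.58.1 (R 4.3.3; functions lmFit and eBayes) in a model of 3 genotype means over the 18 arrays, with Benjamini-Hochberg adjustment over the 16661 probe sets and a threshold of 0.05. The fit was tested on simulated data with independent noise in each probe set. Shifts shared by a whole array were not simulated, so the error rate of the calls in these arrays was not tested. The number of arrays limits the precision.

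The genes and the 38 lists (916 of 1140 entries matched) were chosen with earlier results of these data known. Genes named were Insm1, the higher genes that passed, lower genes of rank 13 to 45 by size, list members that passed or had the 2 smallest p in lists with none, the nearest neighbours of Insm1, the smallest and brightest changes and the most abundant genes. All other genes were named after their values were seen. Alternatives were other scalings, priors, weights, filters, covariates, thresholds and probe sets, the replicate number as a block, and each array left out. Same-numbered homozygous and wildtype arrays had deviations correlated at -0.04, -0.03, 0.13 and 0.10, so the numbers were not taken to pair embryos.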

Additional observations from a re-analysis of the deposited data

Results flagged for a closer look

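Single arrays lay far from the others of their group in 11 of 316 groups of values checked, and chance flags about 1 in 20 groups. In wildtype replicate 8, Snrk was lowest at 4.88 (next 5.03), Cnr1 lowest at 7.20 (next 7.44) and Negr1 highest at 4.63 (next 4.52). Lhx6, an interneuron marker, was highest in wildtype replicate 2 at 2.42 (next 2.01), and Hsd17b7 of cholesterol synthesis in wildtype replicate 4 at 4.59 (next 4.36).

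In the homozygous arrays, Olfr130 was highest in replicate 3 at 1.56 (next 0.83) and Kdm1a lowest there at 7.69 (next 7.80). Replicate 4 was lowest for Nrcam at 5.88 (next 6.10) and highest for Nefm at 2.35 (next 2.11) and for Smad1 at 5.76 (next 5.63). Plch2 was lowest in replicate 1 at 2.57 (next 2.71).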

How the results depend on the processing

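Counts are lower then higher in homozygous arrays, against 84 and 10 as reported. The lower count was 49 with hypoxia genes and 45 with ventral markers as covariate. Higher calls numbered 99 with the 75th percentile of each array as covariate, 84 after a further quantile normalization and 75 after median centring. The counts were 129 and 17 when the dimmest of 3 equal groups of probe sets was left out, 30 and 3 at an adjusted p under 0.01, and 336 and 47 under 0.10. A covariate for gene length, chosen after seeing the data, gave 1714 and 92. The cause of these shifts was not tested, beyond the changed threshold and the smaller number of probe sets. Leaving out 1 array at a time gave 31 to 335 lower and 5 to 82 higher. The replicate number as a block gave 347 lower and 14 higher. In deviations, homozygous replicates 1 to 4 correlated best with wildtype replicates 6, 7, 3 and 1, so only replicate 3 matched its own number. The numbers were not taken to pair embryos, and whether same-numbered embryos shared a litter or batch was not tested. Fitting only the 12 homozygous and wildtype arrays gave 118 and 7, leaving out homozygous replicate 2 with heterozygous replicate 6 gave 79 and 10, and the Eif2s3y covariate gave 109 and 7. The Insm1 call held in all settings and with every array left out. Of the 38 lists, 30 had a median below 0, and 17 after median centring. Differences that did not pass and changed sign were Pax6 with the length covariate (-0.023), Eef2 after median centring (0.031), and Cdk4 with the length covariate (-0.103) and the replicate block (-0.011). With 1 array left out, Eef2 ranged from -0.051 to 0.000 and Cdk4 from -0.007 to 0.075. Signal near the bottom of the scale limits the dimmest genes, and 4 homozygous arrays limit all.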
